A study of Mus musculus with 2 samples.

Results

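The nuclear genes of the mitochondrial respiratory chain were examined in mouse neural tube at embryonic day 13.5. They were taken as every protein-coding gene whose symbol starts with Nduf, Uqcr, Cox4, Cox5, Cox6, Cox7, Cox8 or Atp5, together with Sdha, Sdhb, Sdhc, Sdhd and Cyc1, leaving out symbols that hold "-ps". The rule used names only and gave 94 genes among 21474 protein-coding genes, 43346 mouse genes and 69691 features in each gene table. The series is 1 group of 2 total RNA-seq libraries, biological replicates 1 and 2, so there was no comparison of conditions. Both came from healthy B6NCrl embryos with male and female tissue pooled, from 10 ng of RNA longer than 200 bases with spike-in RNA added, and no genetic change or treatment is given. The labels name separate tissue samples but the same donor entry for both, and do not say how many embryos were pooled. All 10 neuronal markers examined were above 1 TPM in both libraries, with a median of 479 TPM in replicate 1 and 446 TPM in replicate 2, and so were all 10 markers of neural progenitors. Markers of other cells were present too: 8 of 10 erythroid markers were detected and the list summed to 11208 and 11252 TPM in replicates 1 and 2, against 5500 and 5310 TPM for the neuronal list, while 7 of 7 mesenchyme and cartilage markers summed to 774 and 836 TPM and 6 of 6 endothelial markers to 209.5 and 218 TPM. Expected counts summed to 34125110 in replicate 1 and 22311849 in replicate 2. The ratios given are replicate 1 over replicate 2.

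The respiratory chain passes electrons from NADH and succinate to oxygen and uses the energy released to pump protons across the inner mitochondrial membrane. Complex I oxidises NADH, complex II oxidises succinate, complex III passes electrons from ubiquinol to cytochrome c, and complex IV, cytochrome c oxidase, reduces oxygen. Complex V, the ATP synthase, lets protons flow back and makes ATP. Complex II is made wholly from nuclear genes, whereas each of the other complexes also holds subunits encoded by mitochondrial DNA.

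The sequences that bear on the assignment of reads come first. Subunit c of complex V forms the proton-driven ring in the membrane and is made from Atp5g1, Atp5g2 and Atp5g3, which are known for differing in the cleaved import sequence and encoding the same mature protein. The last 228 coding bases of the leading coding transcript of each gene are printed, stop codon included, 5′ to 3′, from GENCODE M21, with capitals where the gene differs from Atp5g3. On GRCm38, Atp5g3 is at chr2:73908447-73911326, Atp5g1 at chr11:96068852-96075670 and Atp5g2 at chr15:102662864-102672352, all on the minus strand.
Atp5g3: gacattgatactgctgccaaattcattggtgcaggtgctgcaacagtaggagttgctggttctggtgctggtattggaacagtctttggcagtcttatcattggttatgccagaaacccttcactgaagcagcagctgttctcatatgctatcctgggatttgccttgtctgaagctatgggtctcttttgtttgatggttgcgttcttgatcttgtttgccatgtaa
Atp5g1: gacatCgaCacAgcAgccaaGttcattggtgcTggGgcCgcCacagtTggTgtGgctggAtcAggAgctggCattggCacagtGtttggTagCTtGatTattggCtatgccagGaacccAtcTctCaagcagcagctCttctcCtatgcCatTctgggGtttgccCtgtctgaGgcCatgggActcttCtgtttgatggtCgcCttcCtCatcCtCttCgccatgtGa
Atp5g2: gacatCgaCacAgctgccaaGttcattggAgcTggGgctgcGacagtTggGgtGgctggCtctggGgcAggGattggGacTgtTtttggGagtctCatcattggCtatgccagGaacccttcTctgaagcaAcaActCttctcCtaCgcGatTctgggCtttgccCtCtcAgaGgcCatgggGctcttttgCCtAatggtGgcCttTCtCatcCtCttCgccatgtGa
Atp5g1 differed from Atp5g3 at 46 of these bases, 41 of them at the third base of a codon. Atp5g2 differed at 49, with 44 at the third base. The identity to Atp5g3 was 79.8% for Atp5g1 and 78.5% for Atp5g2, so reads over this stretch carried differences that separate the 3 genes from each other. Pseudogene copies of Atp5g1 and Atp5g2 are taken up below.

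Ndufb4, an accessory subunit of complex I, was a different case. The annotation holds an intronless processed pseudogene of it, Ndufb4c, at chr15:73809507-73809896 on the minus strand of GRCm38. All 390 bases of Ndufb4c occurred without a difference in the 971-base coding transcript of Ndufb4, as its bases 95 to 484. The first 300 are printed once because they stand for both genes.
Ndufb4 and Ndufb4c: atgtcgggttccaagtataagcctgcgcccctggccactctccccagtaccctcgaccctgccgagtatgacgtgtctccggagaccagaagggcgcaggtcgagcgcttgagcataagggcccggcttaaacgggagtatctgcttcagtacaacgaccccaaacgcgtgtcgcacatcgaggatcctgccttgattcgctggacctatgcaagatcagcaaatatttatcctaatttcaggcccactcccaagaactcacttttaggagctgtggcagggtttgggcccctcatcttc
A read lying within the 390 bases could not be told apart between the gene and its copy.

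As a group, the respiratory chain genes were among the abundant messengers of the neural tube. In both libraries 91 of the 94 reached 1 TPM (the deposited level per transcript length, scaled to a fixed sum, so that genes can be compared), against 61.8% of all protein-coding genes. At the higher level of 100 TPM in both libraries there were 74, against 6.69% of protein-coding genes. Over the 94 genes the median came to 294 TPM in replicate 1 and 289 in replicate 2, beside 4.77 and 5.12 TPM over all protein-coding genes. Together they held 4.22% of protein-coding TPM in replicate 1 and 4.02% in replicate 2. Their transcripts were short, so the same genes held only 1.61% and 1.53% of protein-coding counts in replicates 1 and 2. Among protein-coding genes ranked by mean TPM, 7 of the 94 were in the first 100 and 53 in the first 500. The 13 mitochondrially encoded subunits, by comparison, summed to 30208 TPM in replicate 1 and 30363 in replicate 2, and the 94 nuclear genes to 32100 and 31010 TPM.

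By the deposited TPM, levels differed by complex in the same order in both libraries. Over structural subunits, complex V had a median of 558 TPM in replicate 1 and 526 in replicate 2, over 16 genes. Complex IV followed with 464 and 457 TPM over 19 genes, and complex III with 376 and 352 TPM over 9 genes. Complex I had a median of 272 TPM in replicate 1 and 257 in replicate 2 over 36 genes, and that of complex II 190 and 213 TPM over 4 genes. No complex overlapped its neighbour in this order, so each step was larger than the spread between the 2 libraries. These values are descriptions, since genes of a complex are not replicates and no test was run. The place of complex IV rested on which genes and transcripts were counted. Over its 11 common subunits, without 8 tissue-restricted forms, its median reached 767 TPM in replicate 1 and 706 in replicate 2, above complex V. In transcripts annotated as protein-coding alone, the middle one of its 19 genes was Cox5b, with 175 and 180 TPM in replicates 1 and 2. That is below the deposited median of complex II, and the medians of the other complexes were not recomputed for coding transcripts.

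**Figure D1:**
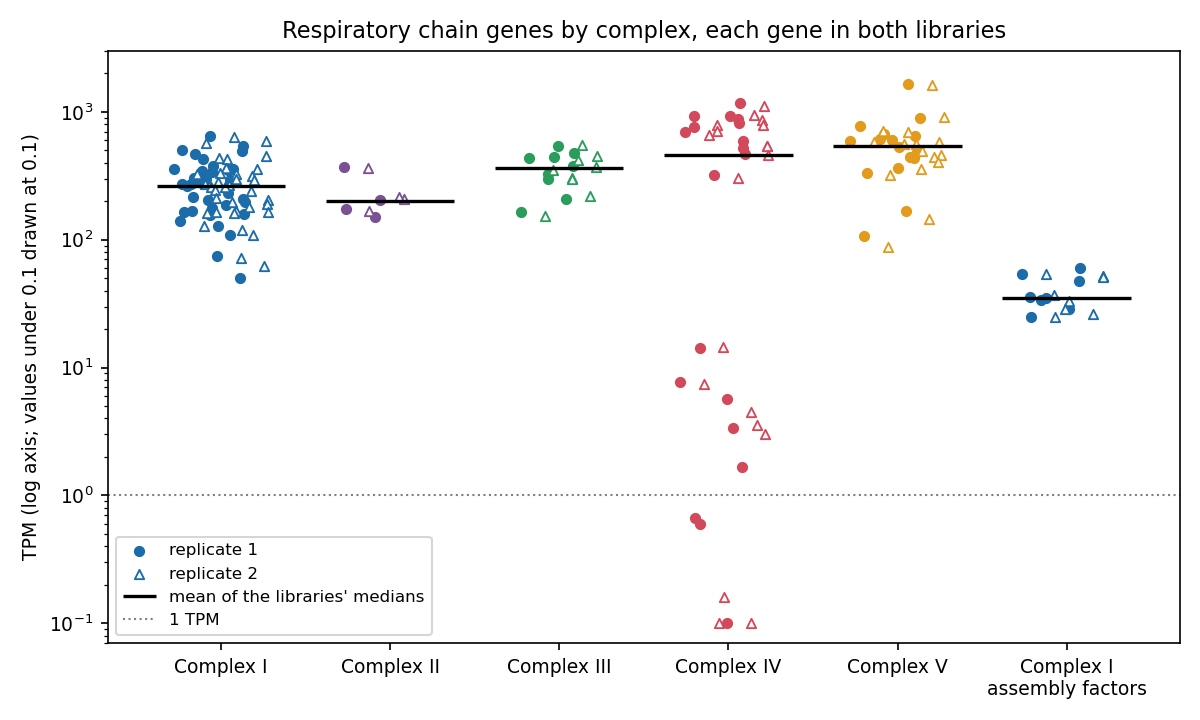
Each point is 1 gene in 1 library, in TPM on a log axis, by complex. Filled circles are replicate 1 and open triangles replicate 2, and the black line is the mean of both libraries' medians. The 8 tissue-restricted genes of complex IV lie below 15 TPM in both libraries, and the assembly factors of complex I lie between 24.7 and 60.5 TPM.

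Complex I subunits spanned 11.5-fold in mean TPM between the highest and the lowest. The highest by deposited TPM were accessory subunits. Ndufc1 had 646 TPM in replicate 1 and 634 TPM in replicate 2. Ndufab1, which is also the mitochondrial acyl carrier protein, had 540 and 586 TPM, and Ndufb8 500 and 571 TPM. In transcripts annotated as protein-coding alone, Ndufc1 had 327 and 311 TPM, Ndufab1 277 and 319, and Ndufb8 433 and 376. Each was then below Ndufa1, with 497 and 451 TPM. Lowest as deposited was Ndufb4, with 49.9 TPM in replicate 1 and 61.7 TPM in replicate 2, a level taken up again with its pseudogene.

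The 7 nuclear subunits of the catalytic core of complex I, which bind NADH, carry the electron-transfer cofactors and reach the quinone site, had a lower median than the accessory subunits. It was 178 and 169 TPM in replicates 1 and 2, against 293 and 273 TPM over the 29 accessory subunits. In the NADH-oxidising module, Ndufv2 had 302 and 283 TPM, above the accessory median in both libraries, Ndufv1, which binds the flavin and NADH, 166 and 165 TPM, and Ndufs1, the largest core subunit, 109 TPM in both libraries. In the module next to the quinone, Ndufs7 had 207 and 191 TPM, Ndufs8 178 and 169 TPM, and Ndufs3 160 and 165 TPM. These core genes had longer transcripts, with a median effective length of 946 bases against 507 bases for the accessory genes.

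Level went with transcript length within complex I. Across its 36 structural genes Spearman's rho of mean TPM with effective length (transcript length less 99 bases, averaged over transcripts in use) was -0.79. Over all 81 detected structural genes rho was -0.39, and over 13263 detected protein-coding genes -0.29. TPM divides counts by this same length, so the 2 quantities share a term and a negative rho is partly built in. The points share the same 2 libraries and are genes, not replicates, so this is a description. Departures from it included 2 subunits of the catalytic head of complex V with long transcripts: Atp5b stood at 1645 TPM in replicate 1 and 1630 TPM in replicate 2, and Atp5a1 at 675 and 701 TPM. These were singled out after their values were seen.

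**Figure D2:**
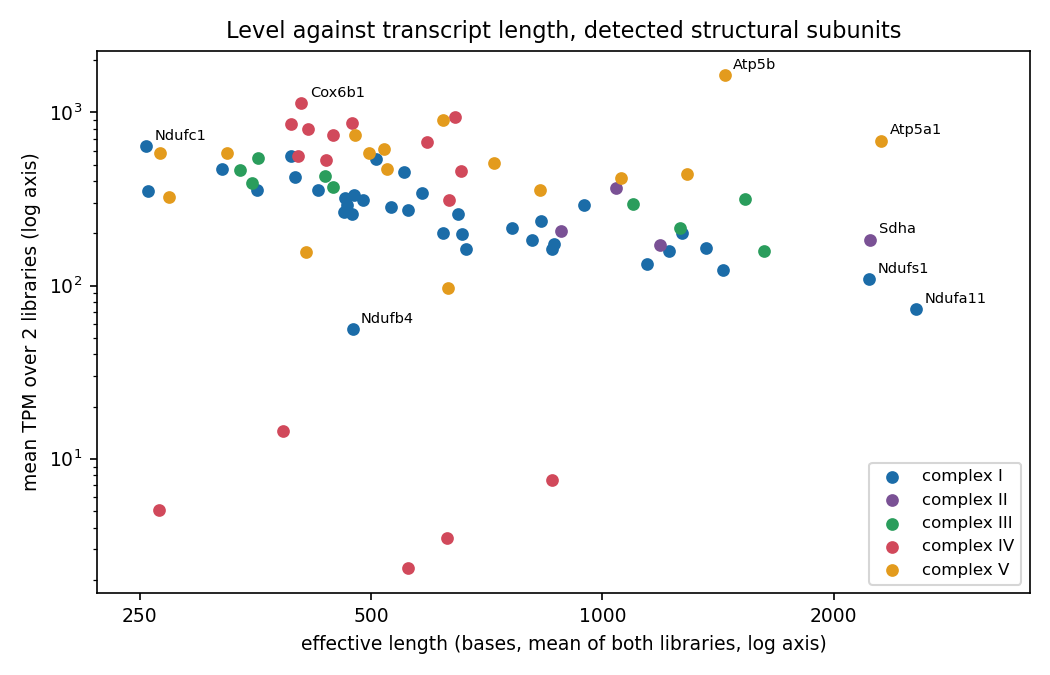
Mean TPM over 2 libraries against effective length in bases, both on log axes, for the 81 detected structural genes, coloured by complex. Complex I runs from Ndufc1, short and abundant, to Ndufs1 and Ndufa11, long and lower, whereas Atp5b and Atp5a1 lie high among the long transcripts and Ndufb4 low among the short ones.

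The 8 complex I assembly factors caught by the rule, which build the complex and do not stay in it, had a median of 35.3 TPM in replicate 1 and 34.99 in replicate 2. The highest was Ndufaf3 with 60.5 and 51.9 TPM, and the lowest Ndufaf7, a mitochondrial methyltransferase, with 24.7 and 24.8 TPM. Every Ndufaf gene except Ndufaf2 and Ndufaf3 was below the lowest complex I subunit in both libraries, and those 2 exceeded Ndufb4 in replicate 1 only. Of 44 further assembly factors for complexes I to V, 44 were detected, with a median of 29.2 TPM in replicate 1 and 30.8 TPM in replicate 2. Their highest was Uqcc2, a complex III factor, with 235 and 223 TPM, and their lowest Pet117, a complex IV factor, with 1.23 and 4.07 TPM, where the posterior standard deviation was 67.8% and 34.4% of the count.

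All 4 genes of complex II were detected. Sdhb, the iron-sulfur subunit, was the highest with 373 TPM in replicate 1 and 360 TPM in replicate 2. Sdhc and Sdhd, the membrane anchors, had 206 and 209 TPM and 175 and 168 TPM in replicates 1 and 2. Sdha, the flavoprotein that oxidises succinate, was listed at 151 TPM in replicate 1 and 217 in replicate 2, the widest gap of the 4 genes, and is taken up with the transcripts.

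In complex III the small subunits led. Uqcrq had 542 TPM in replicate 1 and 548 TPM in replicate 2, Uqcr10 472 and 453 TPM, and Uqcrb 443 and 420 TPM. In transcripts annotated as protein-coding alone, Uqcrq had 414 and 375 TPM, below Uqcr10 with 449 and 435 and Uqcrb with 440 and 415. Cytochrome c1, Cyc1, had 296 and 298 TPM, and the Rieske iron-sulfur protein, Uqcrfs1, 208 and 220 TPM. The lowest was the core protein Uqcrc2, with 163 TPM in replicate 1 and 153 TPM in replicate 2, so the 9 genes lay within a 3.44-fold range of mean TPM.

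Complex V held the most abundant of the 94 genes, Atp5b, the catalytic beta subunit of the F1 head. Second to it in mean TPM within complex V was Atp5g3, followed by Atp5h, subunit d of the stalk, with 775 TPM in replicate 1 and 704 in replicate 2. In transcripts annotated as protein-coding alone, Atp5b had 1173 and 1187 TPM, close to Cox6b1 of complex IV with 1167 and 1105. Atp5h then had 742 and 652 TPM and Atp5a1 626 and 694, so Atp5a1 exceeded Atp5h in replicate 2. The other F1 subunits lay lower than Atp5b. Beside Atp5a1, the alpha subunit, they were Atp5e (epsilon) with 607 and 560 TPM, Atp5c1 (gamma, the central shaft) with 433 and 405 TPM, and Atp5d (delta) with 362 and 355 TPM.

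Subunits that exist in alternative forms showed a common form and forms near zero. For each pair the fold is the TPM of the common gene over that of its paralogue in the same library. Cox4i1 had 927 TPM in replicate 1 and 946 TPM in replicate 2, against 3.38 and 3.56 TPM for Cox4i2, a form known from lung and low oxygen, which was 274-fold in replicate 1 and 266-fold in replicate 2. Ndufa4, a complex IV subunit despite its name, had 920 and 789 TPM, against 7.70 and 7.46 TPM for Ndufa4l2, known as a target of hypoxia signalling. That pair differed 119-fold in replicate 1 and 106-fold in replicate 2. Of the 8 pericyte markers, in which cells both minor forms are also known, 8 were detected and summed to 195 TPM in replicate 1 and 187 in replicate 2. Most of that sum was 1 marker, Vtn, with 149 and 138 TPM. Their part in these levels was not tested, and in whole tissue fewer cells of a type and less RNA per cell cannot be told apart.

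The forms known from heart and skeletal muscle were present at a few TPM or less. Cox6a1 had 882 TPM in replicate 1 and 860 TPM in replicate 2, against 1.66 and 3.0 TPM for Cox6a2, from 21 and 24 counts. The fold was 531 in replicate 1 and 287 in replicate 2. Cox7a2 had 464 and 457 TPM, against 5.67 and 4.48 TPM for Cox7a1, from 34 and 17 counts, giving 81.9-fold and 102-fold. Cox8b had 4 counts in replicate 1 and 0 in replicate 2, where 0 counts allow up to 0.796 TPM, beside 767 and 706 TPM for Cox8a. The 15 markers of skeletal muscle, 11 of them detected, summed to 165 TPM in replicate 1 and 323 in replicate 2, with the regulator Myf6 at 0.12 and 0 TPM. Cox6a2 was lower in replicate 1, as was the sum of these markers, and Cox7a1 was higher in that library. With so few counts neither difference passed the exact binomial test (adjusted p = 0.225 and 0.637), and the part of muscle RNA was not tested.

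The forms known from testis were Cox8c, Cox7b2 and Cox6b2. Both libraries had 0 counts of Cox8c, a level of at most 0.352 TPM in replicate 1 and of at most 0.555 TPM in replicate 2 by the floor of 3 counts. Cox7b2 had 6 counts in replicate 1 and 1 count in replicate 2, listed at 0.60 and 0.16 TPM, beside 318 and 303 TPM for Cox7b. Cox6b2 stood apart from them with 14.3 TPM in replicate 1 and 14.4 TPM in replicate 2, from 120 and 82 counts. Its common form Cox6b1, the most abundant gene of complex IV, had 1167 and 1105 TPM, which was 81.6-fold and 76.7-fold higher. Of 6 germ cell markers 0 reached 1 TPM in both libraries, and Tnp1 had no counts in either. Cox7b2, Cox8b and Cox8c were the 3 of the 94 genes below 1 TPM in both libraries.

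**Figure D3:**
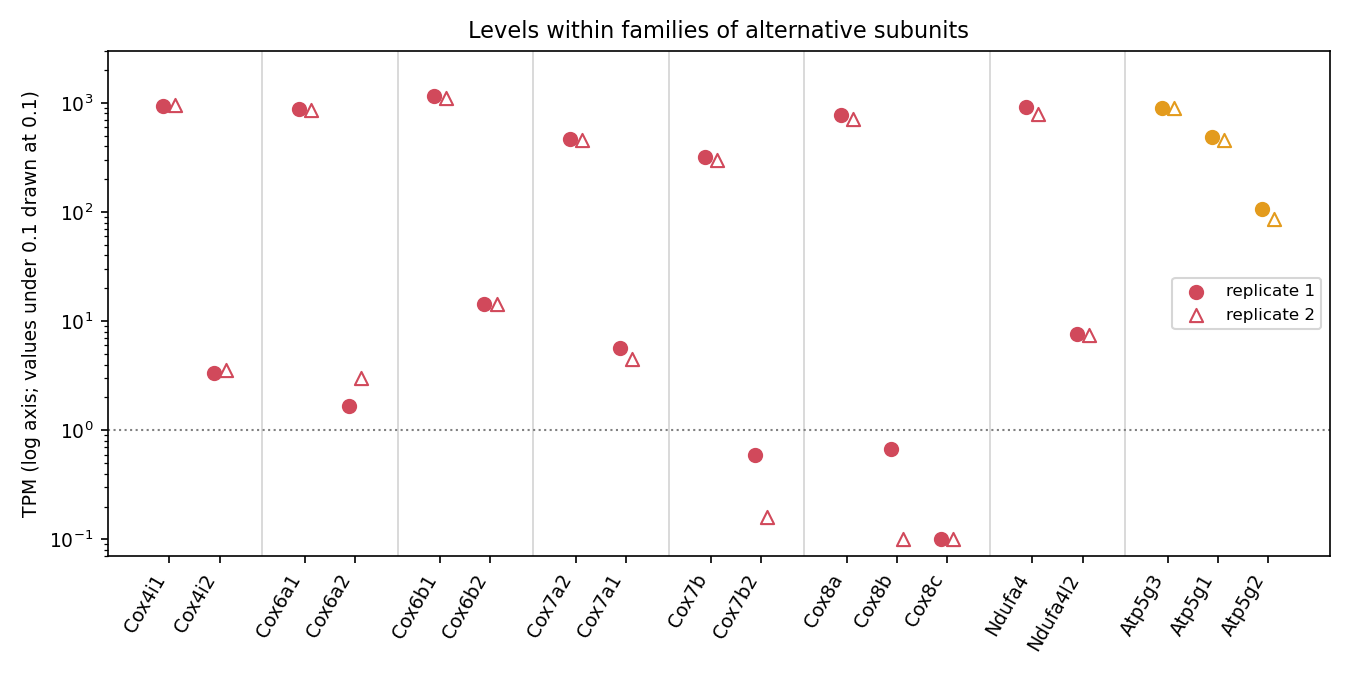
TPM on a log axis of each gene in the families of alternative subunits, replicate 1 as filled circles left of replicate 2 as open triangles, with values under 0.1 drawn at 0.1 and a dotted line at 1 TPM. The common forms stand between 303 and 1167 TPM, and the 3 subunit c genes, at the right, are all above 80 TPM.

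Subunit c differed from those families in using all its genes. Atp5g3 had 896 TPM in replicate 1 and 906 TPM in replicate 2, Atp5g1 483 and 461 TPM, and Atp5g2 107 and 87.0 TPM. Atp5g3 thus gave 60.3% of subunit c TPM in replicate 1 and 62.3% in replicate 2, Atp5g1 32.5% and 31.7%, and Atp5g2 7.18% and 5.99%. The order was the same in both libraries.

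Several of the lowest values belonged to genes with intronless copies elsewhere in the genome. Sequences 100 bases long were compared between the coding transcripts of the 94 genes and the transcripts of all other genes. For 73 genes none was shared, for 21 some were, and for 4 more than 20% were. Those 4 were Atp5l (61.3%), Atp5g2 (34.7%), Ndufb4 (33.4%) and Atp5h (21.7%). Atp5l, Atp5g2 and Ndufb4 were the 2 lowest structural genes of complex V and the lowest of complex I.

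In each of these 3 the deposited table gave most counts to a pseudogene. Ndufb4 had 542 counts in replicate 1 and 412 in replicate 2, whereas Ndufb4c had 2163 and 1207, or 79.9% and 74.6% of both together. Atp5l, subunit g of the ATP synthase membrane part, had 1563 and 861 counts, whereas Gm10221 on chromosome 5, which shares 47.2% of its 100-base stretches, had 5798 and 3569. Atp5g2 had 1521 and 785 counts, whereas Gm10175 on chromosome 7 had 2448 and 1535. Smaller shares went to Gm12338 on chromosome 11, with 1541 and 860 counts beside 5240 and 3148 for Cox7c, and to Gm10039, with 1383 and 761 counts beside 5732 and 3451 for Atp5g1. Which of them was transcribed cannot be told apart for reads within identical bases. The deposited posterior standard deviation of the count, the authors' own measure of assignment error, did not mark these genes: it was under 10% of the count for every one of the 94 genes with counts.

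If all counts of such pseudogenes belonged to the gene, Ndufb4 would stand at 249 TPM in replicate 1 and 243 TPM in replicate 2, and rank 21 of 36 rather than 36 in complex I. Atp5l would stand at 790 and 751 TPM and rank 3 of 16 rather than 15 in complex V. Atp5g2 would stand at 278 and 257 TPM and remain at rank 16, with 15.7% and 14.9% of subunit c. Atp5g3 would then hold 50.5% of subunit c in replicate 1 and 52.5% in replicate 2. These values multiply the listed TPM of a gene, over all its transcripts, by the same factor as its counts. For Ndufb4 a retained-intron transcript held 77.3% and 80.4% of that TPM in replicates 1 and 2. Adding the listed TPM of Ndufb4c to that of Ndufb4 would give 379 and 351 TPM instead, so its level and rank rest on the scaling. The levels as listed for Ndufb4, Atp5l and Atp5g2 are therefore uncertain, by 2.61-fold to 5.15-fold when scaled by counts. On that scaling the median of complex V would be 603 TPM in replicate 1 and 561 TPM in replicate 2, and that of the other complexes would not move. This calculation was added after the values were seen.

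For most of the genes the RNA measured was that of coding transcripts. Over the 91 detected genes the median share of TPM in transcripts annotated as protein-coding was 99.1% in replicate 1 and 99.2% in replicate 2, beside 98.5% and 98.8% over all detected protein-coding genes. Less than 50% of the TPM was in coding transcripts in 8 of the 91 genes, or 8.79%, beside 8.59% of detected protein-coding genes. The share of a gene with 1 transcript is fixed by its annotation, and 28 of the 91 had only 1. Over the 63 with 2 or more transcripts, 8, or 12.7%, were under 50%, beside 11.5% of such protein-coding genes. By TPM, low shares were therefore about as frequent as in other genes. The leading transcript was the same in both libraries for 87 genes, or 95.6%, beside 92.4%. Over genes of 2 or more transcripts it was the same for 59 of 63, or 93.7%, beside 89.6%. Of such protein-coding genes averaging 100 TPM or more, 96.0% kept theirs.

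The lowest share was that of Ndufa5, an accessory complex I subunit, with 9.84% in replicate 1 and 7.95% in replicate 2. Its leading transcript was a 453-base processed transcript without annotated coding sequence, at 309 TPM in replicate 1 and 335 TPM in replicate 2. Ndufa10 had 14.5% and 12.9% and was spread over several transcripts, its leading one a retained intron with 64.2 and 72.3 TPM. Ndufb4 had 22.7% and 19.6%, so only 11.3 TPM in replicate 1 and 12.1 TPM in replicate 2 were left for the transcript whose coding bases match Ndufb4c. For Atp5f1, subunit b of the ATP synthase stalk, the coding share was 30.0% in replicate 1 and 24.4% in replicate 2. Most of the rest of Atp5f1 was in 1 transcript annotated for nonsense-mediated decay, with 301 and 328 TPM. Cox5b, a zinc-binding subunit of complex IV, had 33.5% and 33.3% by TPM.

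The shares differed between TPM, which divides by transcript length, and expected counts, in either direction. By expected counts, the coding share of Cox5b was 58.0% in replicate 1 and 57.9% in replicate 2, and that of Ndufa10 33.5% and 29.6%. For Ndufaf4, an assembly factor, counts gave the lower share, 30.6% in replicate 1 and 32.3% in replicate 2, beside 50.3% and 54.3% by TPM. Ndufa5 stayed low by counts, with 10.1% and 8.58%. Counts put 7 of the 91 genes, or 7.69%, under 50%, beside 4.72% of detected protein-coding genes. Over genes of 2 or more transcripts, counts put 7 of 63, or 11.1%, under 50%, beside 6.22%. Of such protein-coding genes averaging 100 TPM or more, 6.35% were under 50% by counts. These shares are the quantifier's assignments among overlapping transcripts, not separate measurements.

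**Figure D4:**
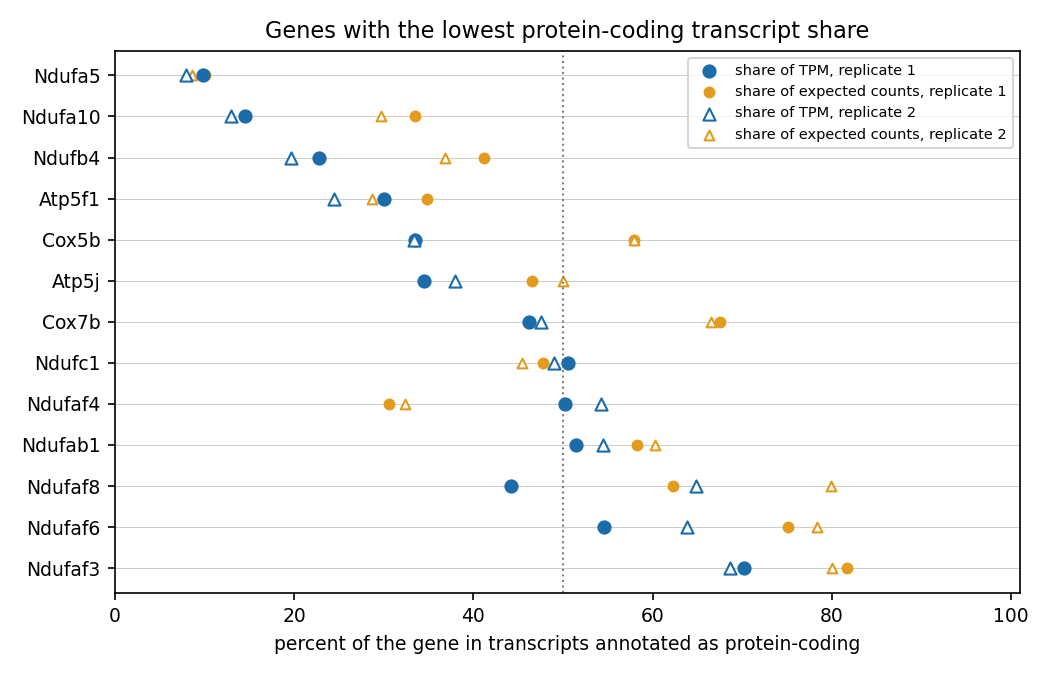
Percent of each gene in protein-coding transcripts for the 13 detected genes of lowest mean share at 10 TPM or more, by TPM in blue and by expected counts in orange, replicate 1 as filled circles and replicate 2 as open triangles. Ndufa5, Ndufa10, Ndufb4 and Atp5f1 are left of the dotted 50% line on both scales and in both libraries, whereas Cox5b crosses it by counts.

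For Sdha the gap between the libraries was wider by TPM than by counts. By counts Sdha had 8551 in replicate 1 and 6117 in replicate 2, and its normalized count was lower in replicate 1 by a log2 ratio of -0.12, with a counting SE of 0.02 and adjusted p = 3.11e-05 in the exact binomial test. By TPM the ratio was -0.52. A 239-base transcript with a retained intron was listed at 4.30 TPM in replicate 1 and 44.8 TPM in replicate 2, and the 2900-base coding transcript at 133 and 147 TPM. Ndufb8, named after its values were seen, was alike: a 341-base retained-intron transcript had 53.8 TPM in replicate 1 and 180 TPM in replicate 2, and the log2 ratio was -0.19 by TPM and 0.07 by counts. These were the 2 of 91 genes in which the 2 log2 ratios differed by more than 0.2.

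Between the libraries the respiratory chain genes differed by a few percent, and whether that was less than for other genes rested on the scale and on the genes set beside them. The median coefficient of variation of TPM over 2 libraries was 3.64% over the 91 detected genes, beside 6.30% over all detected protein-coding genes. By FPKM, the same measure without the constant sum, it was 5.12% beside 5.89%. Among genes averaging 100 TPM or more the 74 respiratory chain genes had 3.42% by TPM, beside 3.89% over 1492 protein-coding genes, and 5.07% by FPKM, beside 4.06%. By normalized count the median size of the log2 ratio was 0.11 over the 78 genes averaging at least 1000 counts, larger than the 0.08 over 6132 other protein-coding genes at that depth. In the exact binomial test of the rounded counts, which sets the 2 libraries against counting noise and not conditions against each other, 0 of 91 genes passed adjusted p under 0.05 with at least a 2-fold ratio, and 62 had an unadjusted p under 0.05. Over all 17428 genes tested 2.15% passed, but among the 6210 protein-coding genes averaging at least 1000 counts 0 did, so the 0 says nothing particular of these genes. At 1.5-fold the count was again 0, against 3.88% of all genes and 0.113% of those at that depth.

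A small shift in 1 direction ran through most of the genes. The normalized count was higher in replicate 1 for 79 of 91 genes, against 49.2% of protein-coding genes, with a median log2 ratio of 0.10 against -0.0035. Without a fold threshold 51 of 91 genes passed the adjusted p, or 56.0%, against 24.2% of all genes tested. Of these, 48 were higher in replicate 1, against 11.6% of all genes, and 3 were lower, against 12.5%. The largest shift called was that of Atp5g2, a gene with pseudogene copies, at a log2 ratio of 0.36 (SE 0.06, adjusted p = 3.76e-07 in the exact binomial test), followed by Uqcr11, a small complex III subunit, at 0.35 (SE 0.04, adjusted p = 3.23e-15 in that test). Both were named after their values were seen. The 3 lower genes were Sdha, Ndufa12 with a log2 ratio of -0.12, and Atp5a1 with -0.06. With DESeq2 size factors 48 and 3 were called, and with plain totals 44 and 3. By TPM 61 of 91 genes were higher in replicate 1, against 37.1% of detected protein-coding genes, and by FPKM 77, against 47.0%. These are deep-counted genes, and of 78 with a mean count of at least 1000, 50 passed the adjusted p, against 38.1% of protein-coding genes at that depth, 47 of them higher in replicate 1, against 19.5%, and 3 lower, against 18.6%. Markers of some cells differed between the same libraries. All 6 markers of dividing cells had lower TPM in replicate 1, as had 8313 of 13263 detected protein-coding genes. Their sums were 273 TPM in replicate 1 and 342 TPM in replicate 2, and the muscle markers summed to 165 and 323 TPM. The sums of the neuronal, progenitor, pericyte, erythroid, mesenchyme and endothelial lists differed less, such as 3167 and 3093 TPM for progenitors. The part of any of these cells in the shift was not tested.

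The median log2 ratio was positive in each complex, against -0.0035 over protein-coding genes. It was 0.14 over complex V, 0.12 over complex III, 0.10 over complex I, 0.10 over complex IV and 0.08 over complex II. In that order 15 of 16, 8 of 9, 31 of 36, 12 of 16 and 3 of 4 genes were higher in replicate 1. Of protein-coding genes at a mean count of 10 or more, 49.2% were. Genes of like length are set beside the respiratory chain genes next.

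Short genes outside the respiratory chain also shifted. Among protein-coding genes averaging at least 1000 counts, the 31 respiratory chain genes of effective length under 500 bases had a median log2 ratio of 0.14, and the 80 other genes of that length 0.12. Between 500 and 1000 bases the medians were 0.10 over 27 respiratory chain genes and 0.09 over 448 others. Between 1000 and 2000 bases they were 0.07 over 15 genes and 0.04 over 1547 others. Between 2000 and 4000 bases the sets had opposite signs, with 0.04 over 5 genes and -0.02 over 2698 others. Respiratory chain genes higher in replicate 1 were, by rising length, 27 of 31, 27 of 27, 13 of 15 and 3 of 5. Of the other genes of these lengths 90.0%, 76.8%, 61.8% and 44.1% were higher in it. At 4000 bases or more, where there was no respiratory chain gene, the median over 1359 genes was -0.05. Length was looked at after the shift was seen, and its part in the shift was not tested.

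**Figure D5:**
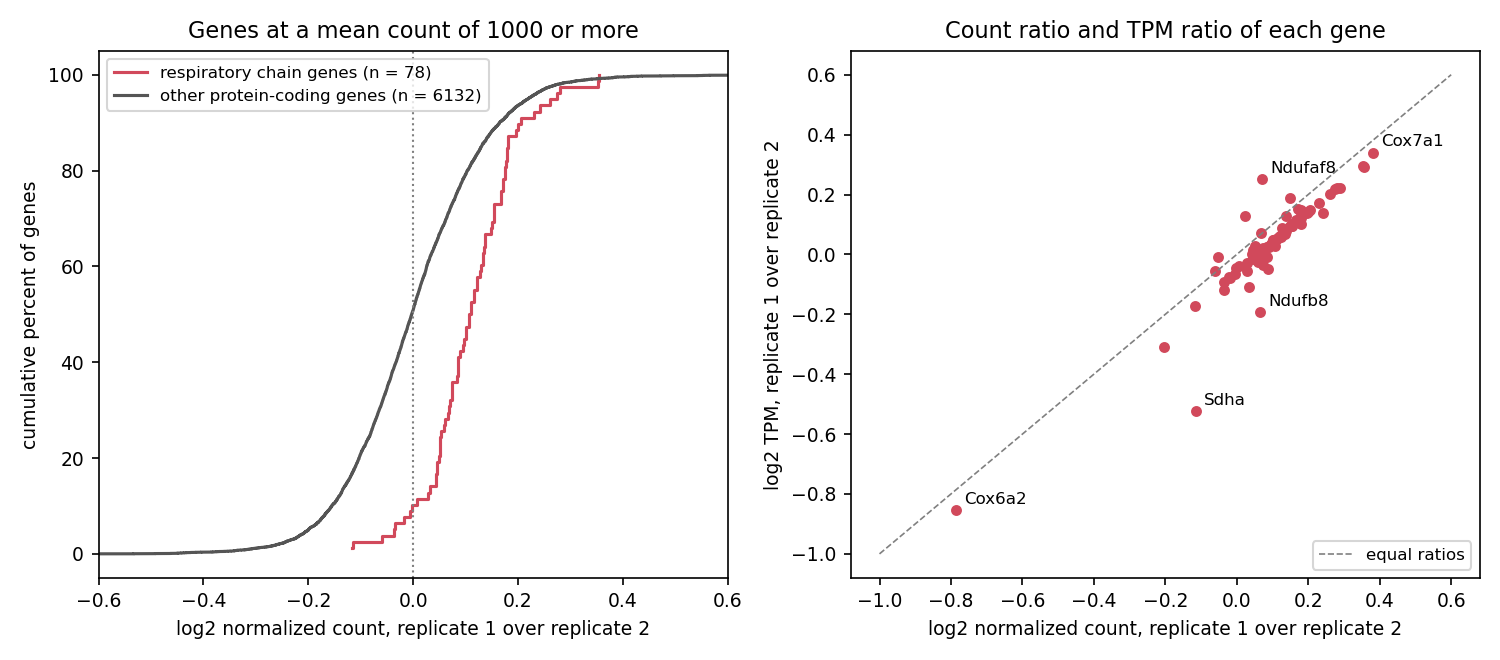
Left, cumulative percent of genes by log2 normalized count of replicate 1 over replicate 2, for 78 respiratory chain genes and 6132 other protein-coding genes at a mean count of 1000 or more; the respiratory chain curve lies to the right, with 70 of 78 genes above 0, against 49.7% of protein-coding genes at that count. Right, log2 TPM ratio against log2 count ratio of each of the 91 genes, where Sdha and Ndufb8 lie farthest below the dashed line of equal ratios.

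Promoter sequence was set beside the levels, because Nrf1 (nuclear respiratory factor 1), the ETS factor GABP and YY1 are known regulators of respiratory chain genes. RefSeq promoters on GRCm38.p6, from 250 bases before to 50 bases after the start, were found for 74 of the 94 genes, as 79 promoters. The Nrf1 motif, GCGCA followed by any base and GCGC, searched as the others on either strand, was in 25.3% of them, against 9.42% of 13346 promoters of detected protein-coding genes and 4.603% of all promoters. The ETS motif, CCGGAAG, was in 22.8%, against 16.3% and 8.86%, and the YY1 motif, AAGATGGC, in 12.7%, against 4.12% and 2.75%. In no promoter of these genes did 2 of the motifs overlap. By complex, the Nrf1 motif was found for 7 of 32 matched structural genes of complex I, 2 of 3 of complex II, 1 of 5 of complex III, 1 of 13 of complex IV and 6 of 13 of complex V. The YY1 motif was found for 7 structural genes of complex I and 2 of complex V.

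The stretch around the motif is printed for the structural gene with it of highest mean TPM over both libraries in each complex, in the direction of the gene and with the motif in capitals. They are Ndufs5 at chr4:123718240-123718319 (minus strand), Sdha at chr13:74350221-74350358 (minus), Uqcrc1 at chr9:108936618-108936697 (plus), Cox6a1 at chr5:115349046-115349140 (minus) and Atp5g3 at chr2:73911277-73911356 (minus).
Ndufs5: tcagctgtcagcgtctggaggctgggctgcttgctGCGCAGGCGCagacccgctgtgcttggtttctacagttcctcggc
Sdha: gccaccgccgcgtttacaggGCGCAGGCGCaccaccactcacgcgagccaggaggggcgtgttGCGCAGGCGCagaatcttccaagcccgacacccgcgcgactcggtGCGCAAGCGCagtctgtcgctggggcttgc
Uqcrc1: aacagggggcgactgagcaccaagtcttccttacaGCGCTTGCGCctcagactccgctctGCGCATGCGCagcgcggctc
Cox6a1: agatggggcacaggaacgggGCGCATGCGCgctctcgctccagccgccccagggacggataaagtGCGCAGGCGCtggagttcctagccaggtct
Atp5g3: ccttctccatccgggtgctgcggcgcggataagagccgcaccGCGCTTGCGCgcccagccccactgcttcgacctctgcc
The choice was close in 2 complexes: Sdhd, which also held the motif, exceeded Sdha in replicate 1, and Ndufa5, with 344 and 367 TPM in replicates 1 and 2, exceeded Ndufs5, with 356 and 357 TPM, in replicate 2. Sdha held 3 matches, Uqcrc1 and Cox6a1 2 each, and the other two 1 each. The median of mean TPM was 294 over the 19 genes with it and 310.4 over the 55 matched genes without it. A match is a string of letters and not a measured binding site.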

How the data were processed

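Total RNA from 2 libraries of 1 group was analysed, grouped by the replicate numbers in the labels. The deposited tables give, per the file headers, expected counts per gene and transcript, TPM and FPKM per gene and transcript, the isoform percent of each transcript, and the posterior standard deviation of each count, a score in reads. Per the labels and their notes the authors used the mm10 build with GENCODE M4. The aligner, the quantifier and the use of strand are not given here by labels or files. Symbols, biotypes and coordinates came from GENCODE M21.

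The genes and lists were chosen with earlier results of these data known. Expected counts were rounded, scaled by TMM (edgeR 4.0.16, R 4.3.3), and tested by a two-sided exact binomial test against the library sizes (SciPy 1.17.1) over genes averaging at least 10 counts, with 0.5 added to each count for ratios and Benjamini-Hochberg adjustment over all genes. The test was checked on simulated data. It covers counting error only. A count of 0 was taken to allow 3 counts. DESeq2 1.42.0 size factors were an alternative. Named genes were the 3 highest and the lowest of each complex, all of complex II, catalytic and core subunits, alternative forms, the extremes of each list, and the genes of lowest coding share. A comparison of protein sequences was not run. The values of 1 core subunit are not reported here.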

Additional observations from a re-analysis of the deposited data

How the results depend on the processing

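No paired analysis was possible because there is 1 group. Of 50 recomputed values whose outcome was not settled by construction, 36 stayed within the libraries' spread or, for counts and spreads, within 1.5 times. The other 108 were settled by construction: each library alone against the mean of both, a constant per library, or an alternative that changed no gene of the set. The medians of complexes I, II, III, IV and V, as means of both libraries 264, 202, 364, 461 and 542 TPM, became 173, 132, 238, 301 and 354 by FPKM, and 345, 263, 475, 601 and 707 with TPM rescaled over protein-coding genes. Both multiply each library by 1 constant, so the order of complexes could not change. With assembly factors included complex I had a median of 209 TPM and 1.34% of protein-coding TPM, in place of 1.30%. With genes placed by symbol prefix alone complex I held 1.41%, complex IV had a median of 385 TPM and 0.939% in place of 1.03%, and complex V a median of 513 TPM. Posterior mean TPM gave complex IV 446. Without tissue-restricted forms complex IV stood at 737 TPM, above complex V. With pseudogene counts added complex V stood at 582 TPM. Genes called between the libraries were 51 without a fold threshold, against 0. Added after the data were seen were the pseudogene counts, coding shares by counts, and other scales for the direction of the shift, by which 61 (TPM) and 77 (FPKM) of 91 genes were higher in replicate 1, against 79. Of detected protein-coding genes 37.1% and 47.0% were, with median log2 ratios of -0.06 in TPM and -0.012 in FPKM. With 2 libraries an SD rests on 2 values, and genes under 50 counts (Cox4i2, Cox6a2, Cox7a1, Cox7b2, Cox8b, Cox8c) are limited by depth.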

Other observations

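The mobile parts around the complexes had levels as unlike as the subunits. Atpif1, the inhibitor of the ATP synthase when it runs backwards, had 1203 TPM in replicate 1 and 1061 TPM in replicate 2, close to the most abundant subunits. Cycs, the somatic cytochrome c that carries electrons from complex III to complex IV, had 66.6 and 67.6 TPM, below Cyc1. Its testis form Cyct had 1 count in each library. Higd2a, a complex IV and supercomplex factor, had 184 and 165 TPM. Cox7a2l, studied as a factor for joining complexes III and IV, had 144 and 139 TPM, and its function was not measured here.

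All 12 regulators of mitochondrial gene expression examined were detected, with a median of 15.4 TPM in replicate 1 and 17.7 TPM in replicate 2, below the median of each complex. Tfam, which packages mitochondrial DNA, led them with 42.04 TPM in replicate 1 and 52.1 TPM in replicate 2. Nrf1 had 30.6 and 30.4 TPM, Gabpa 15.8 and 16.2 TPM, and Yy1 14.95 and 16.6 TPM. The coactivator Ppargc1a had 6.70 and 7.21 TPM, and Ppargc1b, the lowest, 1.64 and 1.71 TPM.

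Of the 13 mitochondrially encoded subunits mt-Atp6 was listed the highest, with 7905 and 8380 TPM in replicates 1 and 2. The posterior standard deviation of mt-Atp6 was 17.0% and 12.8% of its count, and mt-Atp8 followed with 6895 and 6740 TPM. The lowest, mt-Nd4l, was also the least alike between the libraries, with 38.95 TPM in replicate 1 and 267 TPM in replicate 2. Its posterior standard deviation was 89.6% of the count in replicate 1 and 38.5% in replicate 2, so its level is uncertain. Also uncertain were mt-Co3, with 220% and 105% in replicates 1 and 2, mt-Co2, with 75.9% and 61.1%, and mt-Nd3, with 18.7% and 23.9%.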
